A study of Homo sapiens with 8 samples.

Results

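The subject here is the set of transcripts whose response to a TRPM7 shRNA differed between 2 neuroblastoma cell lines. For every probe the change in SH-SY5Y cells (TRPM7 shRNA minus control) was set against the same change in SH-EP2 cells, using all 8 arrays of the series. The difference of the 2 changes, the interaction, is positive where the change in SH-SY5Y cells lay above that in SH-EP2 cells. A probe was called where the limma adjusted p was under 0.05. Of 47322 probes, 662 were called for the interaction (1.4%), 287 with a positive (0.606%) and 375 with a negative value (0.792%), and they represent 592 gene symbols.

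Both lines were profiled on Illumina HumanHT-12 v4 bead arrays. SH-SY5Y is a neuroblastic line and SH-EP2 an epithelial-like line, and the paper describes both as subclones of SK-N-SH. The 4 groups were SH-SY5Y control, SH-SY5Y TRPM7 shRNA, SH-EP2 control and SH-EP2 TRPM7 shRNA, with 2 arrays each. By the methods SH-EP2 cells grew in DMEM, and SH-SY5Y cells in DMEM/F12 with added non-essential amino acids and glutamine. Line and medium therefore cannot be told apart. Every group carries a lentiviral vector, so the controls are not parental cells: they express a scrambled, nonfunctional shRNA and were selected with puromycin like the knockdown cells. The labels name 1 kind of TRPM7 shRNA for these arrays and no second sequence, so effects of the shRNA on other transcripts were not tested here. Apart from the arrays, the paper measured TRPM7 by quantitative RT-PCR. It also repeated the reduced migration of SH-EP2 cells with an independent TRPM7 shRNA. Neither the labels nor the methods say that the duplicates came from separate cultures, so the p-values measure only the spread between these arrays, which may be technical.

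TRPM7 is a cation channel for magnesium, calcium and zinc that carries a kinase domain at its intracellular end, and it is known for its part in adhesion, actomyosin contractility and cell migration. Neuroblastoma arises from the sympathetic neural crest, and its cultured cells occur in interconvertible states. Neuroblastic cells express the noradrenergic programme of sympathetic neurons, whereas epithelial-like, substrate-adherent cells resemble mesenchymal or Schwann cell precursors and express matrix, contractile and inflammatory genes.

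The single TRPM7 probe gave no check of the knockdown. Its normalized log2 signal was 2.81 and 3.02 on the SH-SY5Y control arrays, 2.70 and 2.63 on the SH-SY5Y shRNA arrays, 2.47 and 2.80 on the SH-EP2 control arrays and 2.65 and 2.46 on the SH-EP2 shRNA arrays. Both SH-SY5Y control arrays lay above both SH-SY5Y shRNA arrays, whereas the SH-EP2 groups overlapped. The detection p lay between 0.0753 and 0.201, so TRPM7 was not detected at the threshold of 0.05 on any array. Its interaction was -0.18 ± 0.635 on the log2 scale (SE, adjusted p = 0.961). Each array detected 19331 to 20904 probes (40.8% to 44.2%) at that threshold, and precision is limited by having 2 arrays per group. The line labels matched their markers: 13 noradrenergic genes had a median signal of 10.01 to 10.2 on the SH-SY5Y arrays and 2.53 to 3.16 on the SH-EP2 arrays, and 12 mesenchymal genes had 3.41 to 3.94 and 10.36 to 11.17. TH and SLC18A2, which make and store catecholamines, stayed undetected in both lines.

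The called probes were divided by the lines that express them. A line was taken to express a probe where both arrays of at least 1 of its groups had a detection p under 0.05. Among 14577 probes detected on all 8 arrays 503 were called (3.45%), and among 1867 further probes expressed by both lines 71 were called (3.8%). Of 2889 probes expressed by SH-SY5Y cells only, 32 were called (1.11%), and of 2301 expressed by SH-EP2 cells only, 52 (2.26%). The remaining 25688 probes gave 4 calls. The order of these shares depends on the background correction: with none, 824 of the probes detected on all 8 arrays and 209 of those expressed by SH-EP2 cells only were called, a larger share of the latter. At an unadjusted p under 0.05 there were 4879 probes. These counts depend on the variance model: 23 probes were called without the intensity trend in limma and 15 with a separate variance per probe, although all fitted values stay the same. The total also fell by over 1.5 times to 419 without SH-EP2 control replicate 2, 405 without SH-EP2 TRPM7 shRNA replicate 1 and 416 without its replicate 2. Among probes detected on all 8 arrays, it was 326 and 307 without SH-EP2 control replicate 1 or 2, and 303 and 296 without SH-EP2 TRPM7 shRNA replicate 1 or 2.

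The shares by sign depend on the scaling of the arrays. With quantile normalization 43.4% of the called probes were positive, and with median scaling 62.9%, where the median interaction of all probes was 0.10 in place of -0.01. No excess of either sign can therefore be read from these arrays, and the signs below are given gene by gene. The size of an interaction also depends on the background correction where a signal is dim. With none, the interaction of DLX5 was 0.847 in place of 3.84, of RERG 1.1 in place of 3.58, of DGKB 1.17 in place of 3.57 and of IL12A -0.541 in place of -3.20, whereas that of ACTA2 was 2.53 in place of 2.73. Each of these 5 kept its call. The sizes below hold for the correction used here.

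Among the 503 called probes detected on all 8 arrays, 231 had been called in the SH-EP2 comparison only, 120 of them higher and 111 lower with the TRPM7 shRNA. In the SH-SY5Y comparison only, 162 had been called, 51 higher and 111 lower. Both lines fell in 15 probes and rose in 3, so that the responses differed in size and not in direction. Another 45 probes were called in each line with opposite directions. The last 47 were called in neither line on its own. The fitted change was larger in SH-SY5Y cells for 216 of the 503 and in SH-EP2 cells for 287. Of all 14577 probes detected on all 8 arrays, 5.63% were called in SH-SY5Y cells and 7.79% in SH-EP2 cells. Over all 47322 probes, most of them not detected, the shares were 2.11% and 3.02%.

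**Figure D1:**
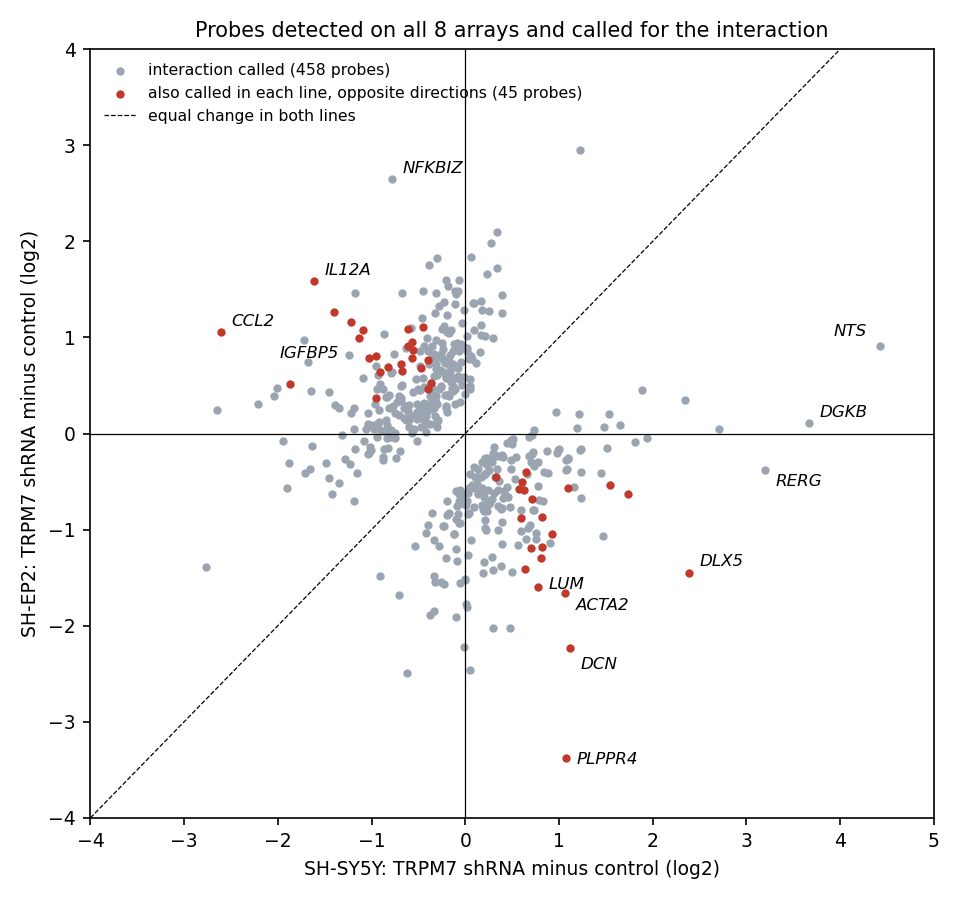
Change with the TRPM7 shRNA in SH-SY5Y cells (horizontal, log2) against the change in SH-EP2 cells (vertical, log2) for the 503 probes detected on all 8 arrays and called for the interaction. Red points are the 45 probes also called in each line in opposite directions, the dashed line marks equal changes, and the empty band along it follows from choosing probes by their distance from that line.

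A small group of genes was driven in opposite directions. Over all probes, 56 rose in one line and fell in the other (0.118% of probes), against 234 called in the same direction. The 45 such probes detected on all 8 arrays represent 40 genes by their brightest probe, 19 that rose in SH-SY5Y and fell in SH-EP2 cells and 21 that did the reverse. Without SH-EP2 control replicate 1 the count over all probes was 34, and without SH-EP2 TRPM7 shRNA replicate 2 it was 33. Genes named from this set beyond the largest 6 and the list members below were picked after their values were seen.

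Of the genes that rose in SH-SY5Y and fell in SH-EP2 cells, PLPPR4, a neuronal membrane protein of the lipid phosphatase-related family, had signals of 8.06 and 7.72 in SH-SY5Y control, 8.99 and 8.95 in SH-SY5Y shRNA, 8.65 and 8.91 in SH-EP2 control, and 5.55 and 5.27 in SH-EP2 shRNA cells. The SH-EP2 controls lay above the SH-SY5Y controls, and after knockdown the SH-EP2 arrays lay below all others. The change was 2.11-fold up in SH-SY5Y and 10.4-fold down in SH-EP2 cells, an interaction of 4.45 ± 0.216 on the log2 scale (SE, adjusted p = 3.32e-10). A second PLPPR4 probe gave 5.25. DLX5, a homeobox factor of craniofacial and neural crest derivatives, had 3.61 and 4.10 rising to 6.12 and 6.37 in SH-SY5Y cells, and 5.44 and 5.33 falling to 4.08 and 3.80 in SH-EP2 cells (interaction 3.84 ± 0.414, adjusted p = 1.73e-05). The SH-EP2 controls lay above the SH-SY5Y controls, and after knockdown the order was the reverse.

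DCN encodes decorin, a small leucine-rich proteoglycan that binds collagen fibrils. Its signals were 10.46 and 10.47 in SH-SY5Y control, 11.57 and 11.59 in SH-SY5Y shRNA, 8.83 and 8.72 in SH-EP2 control, and 6.31 and 6.77 in SH-EP2 shRNA cells, with no overlap between any groups. The interaction was 3.35 ± 0.173 (adjusted p = 7.67e-10), and another detected DCN probe gave 4.04. Its relative LUM, lumican, rose 1.71-fold and fell 3.03-fold (interaction 2.38, adjusted p = 1.09e-09), VCAN, the proteoglycan versican, rose 1.51-fold and fell 1.84-fold, and SDC2, the heparan sulfate proteoglycan syndecan-2, rose 1.55-fold and fell 2.67-fold. ACTA2, smooth muscle actin, had 8.59 and 8.81 rising to 9.72 and 9.82 in SH-SY5Y cells. In SH-EP2 cells it fell from 13.89 and 13.83 to 12.26 and 12.15 (interaction 2.73 ± 0.121, adjusted p = 1.94e-10). CDH11, a mesenchymal cadherin, rose 1.75-fold in SH-SY5Y cells and fell 2.46-fold in SH-EP2 cells. EPAS1, the hypoxia-inducible factor HIF-2 alpha, rose 3.34-fold and fell 1.55-fold.

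Of the genes that fell in SH-SY5Y and rose in SH-EP2 cells, CCL2, the monocyte chemoattractant, had signals of 7.31 and 7.78 in SH-SY5Y control and 5.005 and 4.86 in SH-SY5Y shRNA cells. In SH-EP2 cells it was far brighter, at 12.23 and 12.17 in control and 13.26 and 13.26 in shRNA cells. It fell 6.1-fold in the one line and rose 2.08-fold in the other (interaction -3.66 ± 0.174, adjusted p = 3.29e-10). IL12A, the p35 subunit shared by interleukin-12 and interleukin-35, had 4.64 and 5.19 in SH-SY5Y control against 3.07 and 3.54 in shRNA cells, and 3.85 and 3.74 in SH-EP2 control against 5.54 and 5.22 in shRNA cells. Its changes were of near equal size, a 3.06-fold fall and a 3-fold rise (interaction -3.20 ± 0.494, adjusted p = 0.00096). TNFAIP6, a hyaluronan-binding protein induced by tumour necrosis factor, fell 2.32-fold and rose 2.23-fold. IGFBP5, an insulin-like growth factor binding protein, fell 2.19-fold and rose 2-fold. EFNA1, an ephrin ligand, fell 1.37-fold and rose 2.15-fold, CCND1, cyclin D1, fell 1.29-fold and rose 1.44-fold, and PDGFRA, a platelet-derived growth factor receptor, fell 1.87-fold and rose 1.56-fold.

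**Figure D2:**
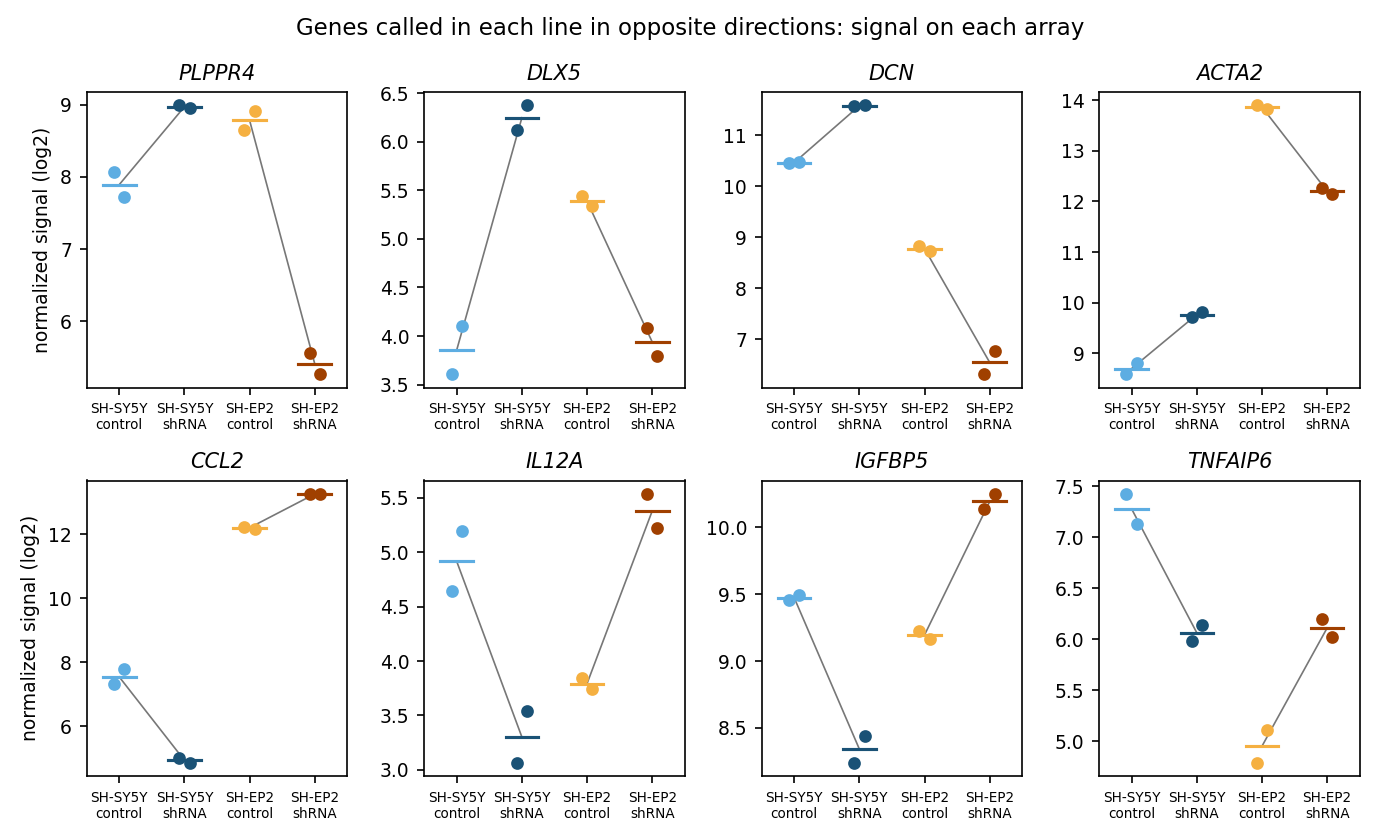
Normalized log2 signal of 8 genes called in each line in opposite directions, on each of the 8 arrays. Points are arrays, short bars are group means of 2 arrays, lines join control to TRPM7 shRNA within a line, and the vertical axes differ between genes. The upper row rises in SH-SY5Y and falls in SH-EP2 cells, and the lower row does the reverse.

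Other large interactions came with a call in 1 line only, or with unequal changes in the same direction. NTS, the neuropeptide neurotensin, had 5.27 and 5.56 in SH-SY5Y control and 9.76 and 9.91 in SH-SY5Y shRNA cells, a 21.5-fold rise. In SH-EP2 cells it had 4.43 and 4.08 against 5.40 and 4.93, a 1.88-fold rise, and the interaction was 3.51 ± 0.306 (adjusted p = 1.14e-06). DGKB, a diacylglycerol kinase, had 4.37 and 3.40 against 7.40 and 7.72 in SH-SY5Y cells and stayed between 7.58 and 7.74 on the SH-EP2 arrays. The SH-SY5Y shRNA arrays thus reached the SH-EP2 range (interaction 3.57 ± 0.331, adjusted p = 2.43e-06). RERG, a RAS-related growth inhibitor, had 3.88 and 4.02 against 7.30 and 7.005 in SH-SY5Y cells and 5.74 and 5.68 against 5.32 and 5.35 in SH-EP2 cells (interaction 3.58, adjusted p = 1.74e-06). EVA1A, a regulator of autophagy, fell 4.64-fold in SH-SY5Y cells, with an adjusted p of 0.604 for SH-EP2 cells (interaction -2.52, adjusted p = 2.81e-05), and its 2 other probes gave -2.59 and -2.45. HYAL1, a hyaluronidase, fell 3.29-fold in SH-SY5Y cells, and its change of 0.98 in SH-EP2 cells did not pass (interaction -2.69, adjusted p = 0.0043). The call was in SH-EP2 cells for NFKBIZ, a nuclear member of the IkB family that is itself induced by inflammatory signals, with 5.80 and 5.20 against 8.12 and 8.17 there and 4.78, 5.14, 3.74 and 4.63 on the SH-SY5Y arrays (interaction -3.43, adjusted p = 4.27e-05). SPOCK2, an extracellular proteoglycan, rose 2.76-fold in SH-EP2 cells (interaction -2.64, adjusted p = 0.00331). In SH-SY5Y cells it had 6.49 and 6.82 against 5.44 and 5.51, a change of -1.18 that did not pass (adjusted p = 0.0777). Second probes of NTS, DGKB, HYAL1 and NFKBIZ were not detected.

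Some genes crossed the detection limit within a line. VSTM2L had 3.64 and 3.08 rising to 6.28 and 6.39 in SH-SY5Y cells, and 4.84 and 4.55 falling below background at 3.01 and 2.56 in SH-EP2 cells (at least 2.87-fold lower), with a fitted interaction of 4.89 (adjusted p = 9.17e-06) that was 0.939 with no background correction. DKK2, a secreted modulator of Wnt signalling, did the reverse, from 8.18 and 8.20 to 6.43 and 6.87 in SH-SY5Y and from 3.41 and 2.35 to 5.09 and 5.69 in SH-EP2 cells (interaction -4.05, adjusted p = 9.88e-06). Where all arrays of a group were below background only a bound can be given for the fold, and the fitted interaction is then neither a bound nor a measured size. The bound is set against the lowest signal of any detected probe on those arrays. TMEM119, a membrane protein of bone and microglia, rose at least 3.23-fold in SH-EP2 cells, while the 4 SH-SY5Y arrays lay between 8.84 and 9.27 (interaction -3.23, adjusted p = 5.36e-06). C5orf46 fell at least 13.8-fold and LRRC32, a surface anchor for latent TGF-beta, at least 6.78-fold in SH-EP2 cells (interactions 3.40 and 3.28). HAS2, a hyaluronan synthase, had an interaction of -3.27 (adjusted p = 0.00753) although neither line passed on its own. The calls for LRRC32 and HAS2 were each lost with 2 of the 8 arrays left out in turn.

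The 20 gene lists and their members were chosen with earlier results of these data known. Their shares of calls may therefore be partly built in, here and below, and are no independent support for a theme. Of these lists, the chemokine and NF-kB targets held the largest share of interaction calls, 39.3%. NF-kB is a family of dimeric factors released from inhibitors by inflammatory signals, and its targets include CXC and CC chemokines, cytokines and the inhibitors themselves. Of 28 measured members, 11 were called for the interaction and all 11 were negative, against 1.79% of all 30935 genes. Of all genes 15290 were expressed by neither line, which lowers that share. Among probes detected on all 8 arrays it was 3.45%. The median interaction of the list was -1.04, and that of all genes -0.02. In SH-EP2 cells 12 members rose and 0 fell, and in SH-SY5Y cells 0 rose and 2 fell. The backgrounds are 3.7% of genes called in SH-EP2 cells and 2.59% in SH-SY5Y cells. The number of interaction calls was 8 to 12 with single arrays left out, and 4 without the intensity trend, with no positive call in any setting run.

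Several of these genes were below background in SH-SY5Y cells. CCL7, a monocyte chemoattractant, had 1.45, 1.48, 1.55 and 1.37 on the SH-SY5Y arrays, all below background. In SH-EP2 cells it had 2.58 and 2.01 in control, again below background, and 7.12 and 7.30 in shRNA cells, a rise of at least 15.8-fold (interaction -4.92, adjusted p = 0.00022). CXCL1, a neutrophil chemokine, had 4.95 and 4.10 against 9.29 and 9.21 in SH-EP2 cells and 2.45, 2.88, 3.78 and 2.75 in SH-SY5Y cells, where 1 of the 4 arrays detected it (interaction -4.13, adjusted p = 6.45e-05). CSF2, the cytokine GM-CSF, had a fitted rise of 8.54-fold in SH-EP2 cells, from 3.03 and 3.36 to 6.21 and 6.36 (interaction -4.06, adjusted p = 0.0021). Of the 2 SH-EP2 control arrays 1 detected it. EBI3, the partner subunit of IL12A in interleukin-35, rose at least 7.24-fold there and CXCL2, another neutrophil chemokine, at least 7.33-fold. IL1A, interleukin-1 alpha, had 3.31 and 3.53 against 7.04 and 7.25 (interaction -3.46, adjusted p = 0.0029).

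Among members detected on all 8 arrays, NFKBIA, the inhibitor that holds NF-kB in the cytoplasm, fell 1.31-fold in SH-SY5Y and rose 1.7-fold in SH-EP2 cells (interaction -1.16, adjusted p = 2.05e-05). SOD2, the mitochondrial superoxide dismutase, changed by -0.09 in SH-SY5Y and 0.95 in SH-EP2 cells on the log2 scale (interaction -1.03, adjusted p = 0.00206). CXCL8, a neutrophil chemokine, rose from 5.31 and 5.11 to 7.57 and 7.70 in SH-EP2 cells, but with 3.24 and 3.34 against 4.0 and 4.59 in SH-SY5Y cells its interaction of -1.43 did not pass (adjusted p = 0.0862). The NF-kB subunit genes NFKB1, NFKB2 and RELB were not called for the interaction, with values of -0.39, -1.39 and -0.48. In bulk RNA, a change in the share of expressing cells cannot be told apart from a change per cell.

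The promoters of 3 of these genes are printed to show the element by which the list is commonly defined. RefSeq promoters of GRCh38.p14 were searched over the 250 bases before the transcription start, on both strands, for the NF-kB consensus. It occurred in 9.57% of 27305 promoters and in 13 of the 23 matched members of the list (56.5%), among them 6 of the 10 matched members called for the interaction. The list was chosen as NF-kB targets, so this share is built into it, and a match is no evidence of binding here. Capitals mark the match, which ends 68 bases before the start in CXCL1 (chr4:73869143-73869392, plus strand), 67 in CXCL2 (chr4:74099196-74099445, minus strand) and 71 in NFKBIA (chr14:35404750-35404999, minus strand).
CXCL1: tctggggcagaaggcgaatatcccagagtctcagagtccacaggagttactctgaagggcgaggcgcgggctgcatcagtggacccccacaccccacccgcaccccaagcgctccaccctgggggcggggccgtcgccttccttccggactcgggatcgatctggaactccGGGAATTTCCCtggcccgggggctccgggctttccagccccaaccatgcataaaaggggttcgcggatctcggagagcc
CXCL2: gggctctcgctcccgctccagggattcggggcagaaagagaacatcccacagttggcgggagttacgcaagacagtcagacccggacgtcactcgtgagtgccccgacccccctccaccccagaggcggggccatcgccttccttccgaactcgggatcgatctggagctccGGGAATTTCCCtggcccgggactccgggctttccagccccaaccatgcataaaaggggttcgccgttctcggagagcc
NFKBIA: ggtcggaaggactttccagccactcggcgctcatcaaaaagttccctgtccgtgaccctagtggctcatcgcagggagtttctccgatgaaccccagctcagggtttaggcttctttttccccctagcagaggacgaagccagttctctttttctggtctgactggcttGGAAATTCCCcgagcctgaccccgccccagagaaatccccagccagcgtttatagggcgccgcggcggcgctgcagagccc
In the genes called in opposite directions the consensus occurred in 3 of 15 matched promoters of those that fell in SH-SY5Y and rose in SH-EP2 cells (IGFBP5, IL12A and NFKBIA) and in 1 of 12 of those that did the reverse.

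ERK kinases end a growth factor cascade, and the list of ERK output holds genes that it induces and feedback inhibitors. Of 14 members 5 were called (35.7%, against 1.79% of all genes), all negative, with a median of -0.67. In SH-EP2 cells 4 rose and 0 fell, and in SH-SY5Y cells 0 rose and 1 fell. DUSP6, a phosphatase that inactivates ERK, had 7.18 and 7.29 against 8.41 and 8.31 in SH-EP2 cells and 9.56, 9.12, 9.05 and 9.19 in SH-SY5Y cells (interaction -1.34, adjusted p = 0.000418). EGR1, an immediate early factor, was the member that fell in SH-SY5Y cells, from 6.95 and 7.09 to 5.71 and 5.56, and it had 9.91, 9.92, 10.19 and 10.22 in SH-EP2 cells (interaction -1.68, adjusted p = 9.35e-06). PHLDA1, ETV4 and SPRY2, which are induced by ERK signalling, rose in SH-EP2 cells by 1.44, 2.02 and 0.90 on the log2 scale. The interaction calls of PHLDA1 and ETV4 were lost with 3 and 6 of the 8 arrays left out. Without SH-EP2 TRPM7 shRNA replicate 2, 3 members were called, with median scaling 3, and without the intensity trend 0.

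MHC class I molecules carry peptides that the immunoproteasome cuts and the TAP transporter loads, and neuroblastic cells are known for low levels of them. Of 15 members 7 fell in SH-SY5Y cells and 1 fell in SH-EP2 cells, and 3 were called for the interaction (20%, against 1.79% of all genes), all negative, with a median of -0.41. The shares over all genes are 2.59% in SH-SY5Y and 3.7% in SH-EP2 cells. TAP1, a transporter subunit, had 5.55 and 5.15 in SH-SY5Y control and was below background in shRNA cells (2.52 and 2.50), a fall of at least 5-fold. In SH-EP2 cells it had 10.18 and 10.31 against 10.63 and 10.56, a fitted interaction of -3.19 (adjusted p = 8.09e-08). PSMB8, an immunoproteasome subunit, had 5.40 and 5.99 against 3.06 and 3.0 in SH-SY5Y cells and 10.04 to 10.26 in SH-EP2 cells (interaction -2.76, adjusted p = 1.59e-06). HLA-E, a nonclassical class I molecule, fell 1.85-fold in SH-SY5Y cells (interaction -0.91, adjusted p = 0.023), a call that was lost with 6 of the 8 arrays left out in turn. B2M, the light chain of class I molecules, fell in SH-SY5Y cells by 0.44 on the log2 scale, with an interaction of -0.29 (adjusted p = 0.304).

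Of 22 interferon-stimulated genes, 2 were called for the interaction (9.09%, against 1.79% of all genes), both negative. IFI44 had 5.93 and 5.73 against 5.17 and 5.27 in SH-SY5Y cells and 8.22 and 8.24 against 9.16 and 9.11 in SH-EP2 cells, and so fell in the one and rose in the other (interaction -1.51 ± 0.216, adjusted p = 0.000418). ISG20, an exonuclease against viral RNA, fell in SH-SY5Y cells by 0.94 on the log2 scale (interaction -1.41, adjusted p = 0.00957), a call lost with 2 of the 8 arrays left out. IFI44L, a relative of IFI44, rose in both lines, by 1.62 and 1.19, with an interaction of 0.43 (adjusted p = 0.728).

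Actin and its smooth muscle partners are driven by serum response factor (SRF), which responds to the actin pool. Of 15 members 5 were called (33.3%, against 1.79% of all genes), all positive, with a median of 0.26. In SH-EP2 cells 8 fell and 0 rose, and in SH-SY5Y cells 2 rose and 3 fell. ACTG2, the smooth muscle gamma actin, had 10.09 and 9.91 against 6.29 and 6.44 in SH-EP2 cells, a 12.4-fold fall, and was detected on 1 of the 4 SH-SY5Y arrays (interaction 3.32, adjusted p = 0.000108). TAGLN, transgelin, had 13.94 and 14.003 against 12.97 and 12.88 in SH-EP2 cells and 4.91 and 5.04 against 5.69 and 6.10 in SH-SY5Y cells, so that it fell where it was abundant and rose where it was scarce (interaction 1.97 ± 0.167, adjusted p = 7.86e-07). CALD1, the actin-binding caldesmon, had 12.34 and 12.22 against 10.89 and 11.01 in SH-EP2 cells and 10.34 to 10.53 in SH-SY5Y cells (interaction 1.24, adjusted p = 3.40e-06). MYH9, nonmuscle myosin heavy chain, fell by 0.70 in SH-EP2 cells (interaction 0.63, adjusted p = 0.00388). TPM1, tropomyosin, fell in both lines, by 0.62 and 0.26, and ACTN1, an actin crosslinker, by 0.40 and 0.62, with interactions that did not pass (adjusted p = 0.0961 and 0.613). The list kept 5 or 6 calls with any array left out and had 1 without the intensity trend.

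SRF binds the CArG box, and the promoter of ACTG2 is printed with both of its matches in capitals. The nearest ends 63 bases before the start (chr2:73892758-73893007, plus strand). The element occurred in 1.14% of all promoters and in 4 of the 13 matched members of the actin list, which was chosen as SRF targets. None of the promoters matched for the genes called in opposite directions held it (0 of 12 and 0 of 15). Only 12 of 19 and 15 of 21 of these genes had a promoter to search, and TAGLN, DCN and CCL2 had none. Only exact matches to the consensus were counted. With the element in 1.14% of all promoters, a count of 0 in so few does not show that these genes lack SRF sites.
ACTG2: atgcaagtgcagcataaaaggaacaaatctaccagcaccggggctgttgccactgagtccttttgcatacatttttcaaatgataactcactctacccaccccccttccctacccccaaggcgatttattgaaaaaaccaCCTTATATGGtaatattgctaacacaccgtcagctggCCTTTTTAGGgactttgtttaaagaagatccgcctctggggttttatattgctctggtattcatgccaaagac

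Of 11 targets of YAP and TAZ, cofactors that respond to cell tension, 1 was called (9.09%, against 1.79% of all genes). The list's median interaction of 0.48 was the largest of the 20 lists, although 5 members were expressed by SH-EP2 cells only. The members' median change with the shRNA was -0.44 for the SH-EP2 line, against -0.06 for SH-SY5Y. The called member was NT5E, the ectonucleotidase CD73. It rose 2.24-fold in SH-SY5Y cells from signals of 3.5 and 4.37 to 5.24 and 4.96, and had 9.67 and 9.82 against 9.13 and 9.26 in SH-EP2 cells (interaction 1.72, adjusted p = 0.00325). CCN2, a classical target, fell by 0.79 in SH-EP2 cells and changed by 0.00 in SH-SY5Y cells, with an interaction that did not pass (adjusted p = 0.206).

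Extracellular matrix genes gave 7 calls among 24 members (29.2%, against 1.79% of all genes), 6 positive and 1 negative, with a median of 0.23. In SH-SY5Y cells 6 rose and 5 fell, and in SH-EP2 cells 1 rose and 7 fell. Beside DCN and LUM, LOX, the enzyme that crosslinks collagen and elastin, was below background in SH-SY5Y control cells (3.07 and 3.20) and reached 4.43 and 5.34 in shRNA cells. In SH-EP2 cells it fell from 9.76 and 9.90 to 8.73 and 8.62 (interaction 2.90, adjusted p = 2.05e-05). FBN1, fibrillin-1, likewise rose at least 2.58-fold in SH-SY5Y cells (interaction 2.15, adjusted p = 0.0118), a call lost with 4 of the 8 arrays left out. The basement membrane collagen COL4A1 fell by 0.62 and COL8A1 by 1.08 in SH-EP2 cells (interactions 0.65 and 1.14). The negative call was LAMC1, a laminin chain, which fell by 1.02 in SH-SY5Y cells and had a change of -0.14 in SH-EP2 cells (interaction -0.88, adjusted p = 0.00232). COL5A1, a fibrillar collagen, fell in both lines, and TNC, tenascin-C, rose in both. Without SH-EP2 control replicate 2 the list had 4 calls, and without the intensity trend 1.

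Among 18 matrix proteases and inhibitors, 4 were called (22.2%, against 1.79% of all genes), 3 of them positive, while the list's median was negative (-0.39). ADAMTS5, an aggrecan-degrading protease, had 6.03 and 5.93 in SH-EP2 control cells and was below background on every other array, a fall of at least 7.01-fold (interaction 4.03, adjusted p = 0.0019). ADAMTS1, a versican-degrading protease, fell 3.6-fold in SH-EP2 cells, from 6.79 and 7.21 to 5.12 and 5.18 (interaction 1.51, adjusted p = 0.00155). PLAT, the tissue plasminogen activator, fell from 6.63 and 6.66 to 5.83 and 6.10 in SH-SY5Y cells and rose from 8.04 and 8.17 to 8.82 and 8.71 in SH-EP2 cells (interaction -1.34, adjusted p = 0.00113).

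**Figure D3:**
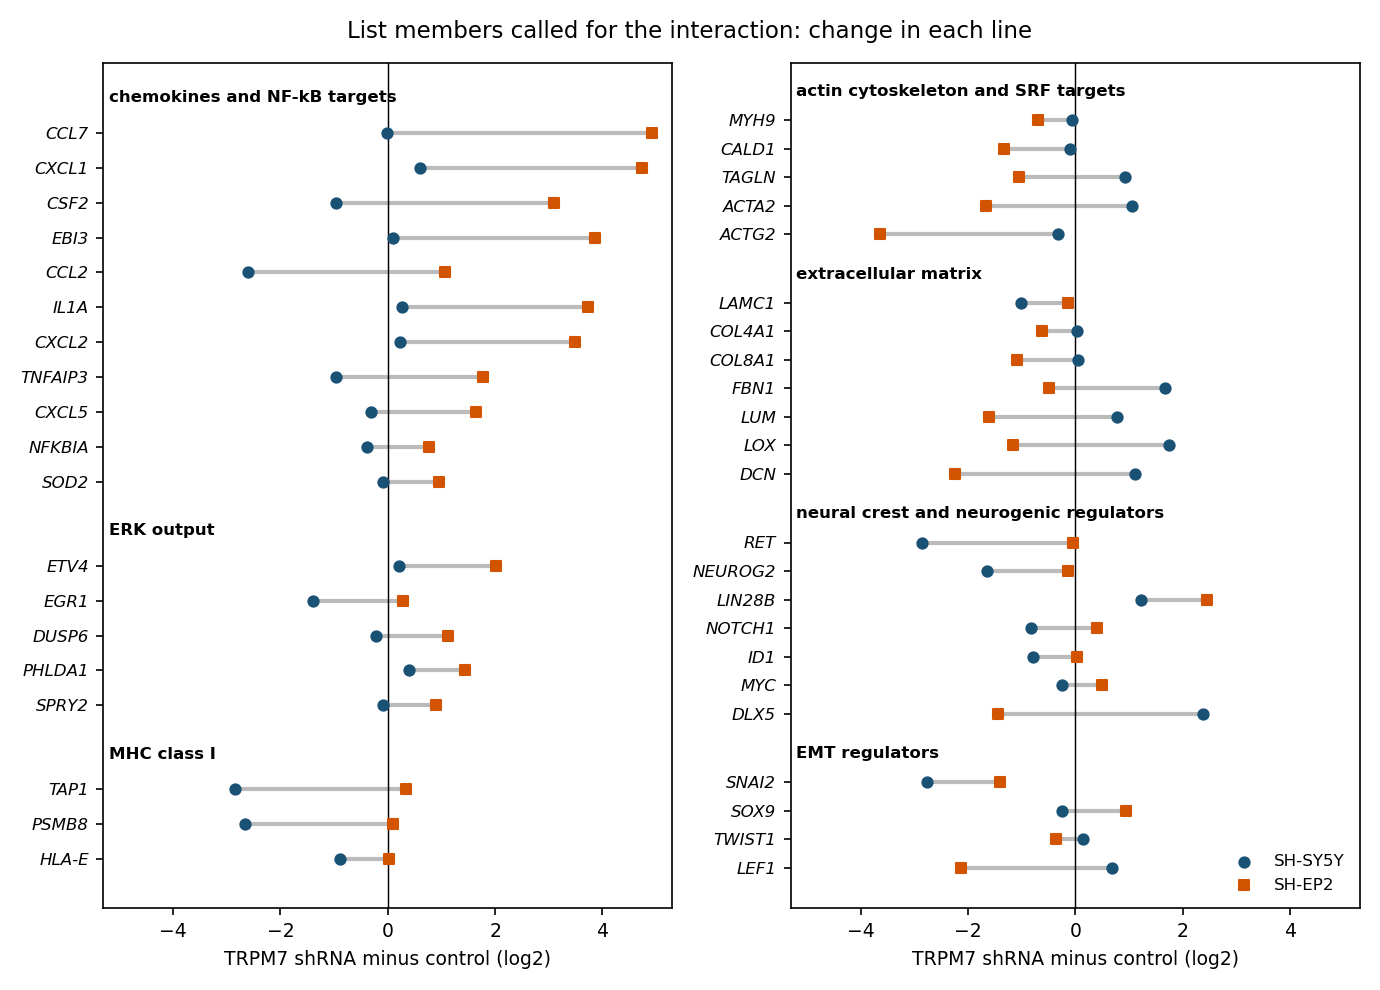
Change with the TRPM7 shRNA (log2) in SH-SY5Y cells (circles) and SH-EP2 cells (squares) for the members of 7 gene lists that were called for the interaction. The length of a bar is the size of the interaction. The called chemokine, ERK and MHC class I members have the SH-SY5Y value on the left, and the called actin members have it on the right.

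Neural crest and neurogenic regulators gave 7 calls among 25 members (28%, against 1.79% of all genes), 1 positive and 6 negative, one of which is LIN28B, whose sign is unsettled, although the median of the list was positive (0.14), so calls and median point in opposite directions. In SH-SY5Y cells 5 rose and 5 fell, and in SH-EP2 cells 2 rose and 2 fell. The study itself singled out, among others, DLX5, LEF1, MSX1, POU4F1, ID3, SNAI2, NOTCH1, RET, DBH, NEUROG2 and CCL2 on these arrays. Their changes in SH-SY5Y cells are therefore not independent evidence. RET, the receptor for glial cell line-derived neurotrophic factors, fell 7.27-fold in SH-SY5Y cells, from 8.81 and 8.83 to 6.0 and 5.92, and was below background in SH-EP2 cells (interaction -2.82, adjusted p = 0.000199). NEUROG2, a proneural factor, had 11.25 and 10.95 against 9.47 and 9.45 in SH-SY5Y cells and 5.14 to 5.42 in SH-EP2 cells (interaction -1.51, adjusted p = 0.000202). NOTCH1, a receptor that restrains neuronal differentiation, and ID1, an inhibitor of bHLH factors, fell in SH-SY5Y cells by 0.82 and 0.79 (interactions -1.22 and -0.83). ID3, a relative of ID1, fell in both lines, by 0.59 and 0.50, with an interaction of -0.09 (adjusted p = 0.883). MYC, a growth-promoting factor, rose by 0.49 in SH-EP2 cells (interaction -0.75, adjusted p = 0.0484), and its relative MYCN was detected in SH-SY5Y cells only and was not called (interaction -0.93, adjusted p = 0.508). With median scaling the list had 4 calls, and likewise 4 without SH-SY5Y TRPM7 shRNA replicate 2 or SH-EP2 control replicate 2.

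LIN28B, an RNA-binding protein that blocks let-7 maturation, rose in both lines, but by different measures. It had 7.70 and 7.81 against 9.01 and 8.97 in SH-SY5Y cells, and in SH-EP2 cells it was below background in control (2.22 and 2.21) and at 4.69 and 4.66 in shRNA cells, a rise of at least 2.73-fold. The fitted interaction of -1.23 (adjusted p = 0.0323) rests on that undetected group. Its sign turned with other background corrections, to 0.05 with neqc, 0.48 with normexp and 0.57 with none, and no direction can be given.

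Of 14 regulators of epithelial-mesenchymal transition 4 were called (28.6%, against 1.79% of all genes), 2 of each sign. SNAI2, the repressor SLUG of the neural crest, had 7.30 and 7.16 against 4.16 and 4.76 in SH-SY5Y cells and 9.40 and 9.24 against 7.92 and 7.93 in SH-EP2 cells. It fell in both lines, 6.81-fold and 2.63-fold, and the interaction was -1.38 ± 0.25 (adjusted p = 0.00425). With no background correction the interaction was 0.12, a second probe gave -1.14 (adjusted p = 0.142), and the call was lost without SH-EP2 control replicate 2, so the larger fall in SH-SY5Y cells is not settled. LEF1, a Wnt effector, fell at least 3.21-fold in SH-EP2 cells and had 6.68 and 6.93 against 7.45 and 7.51 in SH-SY5Y cells (interaction 2.81, adjusted p = 0.000107). SOX9, a neural crest and cartilage factor, rose 1.92-fold in SH-EP2 cells (interaction -1.19, adjusted p = 0.00601). TWIST1, a mesenchymal bHLH factor, fell 1.29-fold in SH-EP2 cells (interaction 0.50, adjusted p = 0.0256), a call lost with 7 of the 8 arrays left out. SNAI1, a relative of SNAI2, was not detected in either line, and HIF1A, EOMES and POU4F1 were not called for the interaction (adjusted p = 0.498, 0.705 and 0.506).

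Of the 13 noradrenergic markers 2 were called for the interaction (15.4%, against 1.79% of all genes), both negative. In SH-SY5Y cells 0 rose and 2 fell, and in SH-EP2 cells 1 rose and 2 fell. DBH, which makes noradrenaline, fell 2.29-fold in SH-SY5Y cells, from 12.53 and 12.71 to 11.43 and 11.42 (interaction -1.19, adjusted p = 0.0216), and ISL1, a sympathetic LIM factor, fell 1.37-fold (interaction -0.63, adjusted p = 0.0224). These calls were lost with 5 and 6 of the 8 arrays left out. Of the 12 mesenchymal markers 1 was called (8.33%), and 0 rose and 1 fell in SH-SY5Y cells and 1 rose and 2 fell in SH-EP2 cells. The median signal of the list in SH-EP2 cells was 11.17 and 11.14 in control and 10.36 and 10.44 in shRNA cells. The median of the members' own changes there was 0.04, so the lower list median is not a typical member change. The called marker VIM, vimentin, fell 1.23-fold in SH-SY5Y cells (interaction -0.42, adjusted p = 0.023), a call lost with 4 arrays left out. Of 18 neuronal cytoskeleton and synapse genes, 2 were called (11.1%, against 1.79% of all genes), CNTN1 and STMN2. CNTN1, a neuronal adhesion molecule, had an interaction of 2.24. STMN2, a tubulin regulator of growth cones, fell 1.5-fold in SH-SY5Y cells (interaction -0.85). Their calls were lost with 3 and 6 of the 8 arrays left out. Of 16 neuropeptide genes, NTS and VIP were called (12.5%, against 1.79% of all genes). VIP, vasoactive intestinal peptide, rose 8.05-fold in SH-SY5Y cells, from 6.77 and 6.61 to 9.64 and 9.76, and was below background on the SH-EP2 arrays (interaction 2.89, adjusted p = 0.000527). NPY, neuropeptide Y of sympathetic neurons, lay between 13.44 and 13.58 on all SH-SY5Y arrays (interaction -0.23, adjusted p = 0.814).

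The remaining lists held 0 to 2 calls each, and the share over all genes was 1.79%. None of 20 proliferation genes was called, with a median of 0.10. Of 13 p53 targets 2 were called (15.4%), BTG2, an antiproliferative factor, and TP53I3, an oxidoreductase. They rose in SH-EP2 cells by 1.24 and 0.58 (interactions -1.44 and -0.70). CDKN1A, the p21 inhibitor of cyclin-dependent kinases, rose in both lines by 0.44 and 0.52 with an interaction of -0.08 (adjusted p = 0.878). A single call each came from 17 cholesterol synthesis genes (5.88%) and 10 metallothioneins (10%). The same held for 13 hypoxia and glycolysis genes (7.69%) and 12 genes of the unfolded protein and amino acid response (8.33%). In that order the calls were SQLE, squalene epoxidase (interaction 0.75), MT1X (0.62), ANKRD37 (1.87) and ASNS, asparagine synthetase (0.78). ANKRD37 fell in both lines, 1.54-fold in SH-SY5Y and 5.63-fold in SH-EP2 cells, where it went from 9.52 and 9.38 to 6.91 and 7.01 (adjusted p = 1.88e-05). The calls for BTG2, TP53I3 and MT1X were lost with 6, 7 and 6 of the 8 arrays left out.

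Probes expressed by a single line are a separate case, because the other line has no level, or one near the detection limit, to set the change against. In 29 of the 32 called probes of SH-SY5Y cells and 43 of the 52 of SH-EP2 cells no array of the other line detected the transcript. Of the 32 called probes expressed by SH-SY5Y cells only, 30 were called within that line, 14 higher and 16 lower, and 0 within SH-EP2 cells. Among the 52 expressed by SH-EP2 cells only, all 52 were called within that line, 27 higher and 25 lower, and 3 within SH-SY5Y cells. These own-line counts are largely built in. Where the other line is near the floor, an interaction mostly needs a change in the line that expresses the probe. A probe can also enter the class only through the group where it is high, as CCL7 and EBI3 did in SH-EP2 shRNA cells. Of all responses in probes expressed by a single line, 30 of 80 in SH-SY5Y and 52 of 152 in SH-EP2 cells also passed for the interaction. The SH-SY5Y count was 16, 17 and 17 without SH-SY5Y control replicate 2, TRPM7 shRNA replicate 1 or TRPM7 shRNA replicate 2. The SH-EP2 count was 32 and 29 without SH-EP2 control replicate 1 or 2, and 23 and 29 without SH-EP2 TRPM7 shRNA replicate 1 or 2.

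In SH-SY5Y cells the largest such changes included neuronal genes. SLC32A1, the vesicular transporter of GABA, had 3.14 and 1.80 in control and 6.59 and 6.44 in shRNA cells, a 16.4-fold fitted rise with 1 of the 2 control arrays detecting it (interaction 4.13, adjusted p = 0.0034). ADGRL3, the adhesion receptor latrophilin-3, rose at least 4.56-fold (interaction 3.71, adjusted p = 0.0038). GPC3, the heparan sulfate proteoglycan glypican-3, rose 5.65-fold, from 7.20 and 7.26 to 9.64 and 9.81 (interaction 3.43, adjusted p = 0.000115). CCDC178 had 3.23 and 2.73 in control cells, where 1 of the 2 arrays detected it, and a fitted rise of 11.1-fold. ODAM fell at least 7.42-fold and LINGO4, a leucine-rich repeat membrane protein, at least 9.71-fold, the latter from 6.27 and 6.34. SPARCL1, a matricellular protein, fell 3.94-fold, but its interaction (-2.78, adjusted p = 0.0404) was lost with 7 of the 8 arrays left out.

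In SH-EP2 cells CRYAB, the small heat shock protein alpha-B crystallin, fell at least 18.5-fold, from 7.59 and 7.17 to 2.93 and 2.97 (interaction 3.84, adjusted p = 0.000617). FMO1, a flavin monooxygenase, fell at least 7.63-fold from 6.03 and 6.18. KCNMB1, the smooth muscle subunit of the BK potassium channel, fell at least 7.71-fold from 6.12 and 6.12. ADAMTS5 and the induced chemokine and cytokine genes CCL7, CXCL1, CSF2 and EBI3, described above, also belong to this class.

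No change of the root mean square distance between the lines was detectable. The root mean square difference between the line means, over the 14577 probes detected on all 8 arrays, was 1.134 on the log2 scale in control and 1.127 in TRPM7 shRNA cells. The change of -0.00729 was within what the 36 exchanges of control and shRNA arrays within each line give (two-sided exact permutation p = 0.833), a test that cannot give a p below 0.0556. The sign of so small a change is not stable: it was 0.0103 with median scaling, 0.01 without SH-SY5Y TRPM7 shRNA replicate 1, and 0.00082 and 0.00281 without SH-EP2 TRPM7 shRNA replicate 1 or 2. Single arrays of different lines were 1.14 to 1.17 apart in control and 1.14 to 1.15 apart in shRNA cells. Control and shRNA arrays of the same line were 0.389 to 0.429 apart in SH-SY5Y and 0.414 to 0.428 in SH-EP2 cells, and replicate arrays 0.287 to 0.33. The step from control to knockdown thus exceeded the distance between replicates in both lines and was far below the distance between the lines. Along the axis between the control lines, SH-EP2 cells moved 6.6% and 7.12% of the way toward SH-SY5Y cells. SH-SY5Y cells moved -1.19% and -3.55% of the way toward SH-EP2 cells, that is, slightly away. The values of a line differ in the control replicate used, and these movements were not tested.

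The number of line differences was also similar, 12400 probes in control (26.2%) and 12351 in TRPM7 shRNA cells (26.1%), of which 9911 were shared (79.9% of the first and 80.2% of the second). Only 46 of the shared probes had a turned order. Besides PLPPR4, DLX5, RERG and IL12A, these included NAV2, a neuron navigator that steers neurite growth, which went from 10.04 and 9.94 to 8.06 and 7.84 in SH-SY5Y cells and had 8.53, 8.74, 8.98 and 9.06 in SH-EP2 cells. FHL1, a LIM protein of muscle, fell from 10.45 and 10.49 to 8.71 and 8.63 in SH-EP2 cells, below the 9.36 to 9.58 of SH-SY5Y cells. PID1, a regulator of insulin signalling, rose from 4.74 and 5.14 to 7.23 and 7.35 in SH-SY5Y cells, above the 5.78 to 6.24 of SH-EP2 cells. NAV2, FHL1 and PID1 were picked from the turned probes after their values were seen.

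Among the 503 called probes detected on all 8 arrays, the gap between the lines became wider in 221 and narrower in 282, so 43.9% widened, against 49.9% of all 14577 probes. Where the probe was on average higher in SH-SY5Y cells 74 widened and 146 narrowed, and where it was higher in SH-EP2 cells 147 widened and 136 narrowed. This split follows the signs of the interaction, whose shares depend on the scaling of the arrays. No asymmetry between the lines can therefore be read from it. The share that widened was 71.4% of the 7 probes called without the intensity trend and 30% of the 10 called with a separate variance per probe. By gene list, the median gap of the chemokine and NF-kB targets went from -0.83 in control to -3.37 in shRNA cells, that is, further toward higher SH-EP2 signals. The median gap of the noradrenergic genes went from 6.27 to 5.94 and that of the mesenchymal genes from -2.80 to -3.14. The median interactions of these lists were -0.34 and -0.03, so the mesenchymal shift is not seen in the median change of its members.

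**Figure D4:**
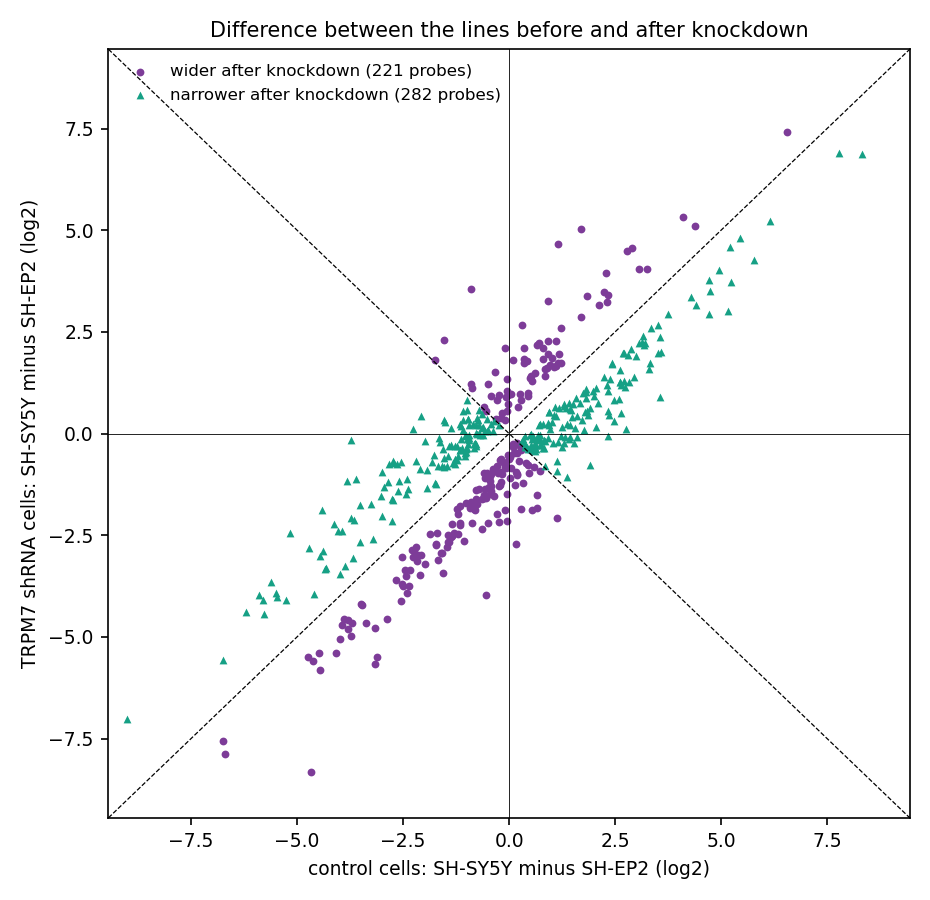
Difference between the lines (SH-SY5Y minus SH-EP2, log2) in control cells (horizontal) and in TRPM7 shRNA cells (vertical) for the 503 probes detected on all 8 arrays and called for the interaction. Circles are the 221 probes whose gap widened and triangles the 282 whose gap narrowed. Dashed diagonals mark gaps of equal size, and most points keep their side of 0, with 135 sign changes.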

How the data were processed

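Expression was measured on 8 Illumina HumanHT-12 v4 arrays, 2 for each of 4 groups, which were taken from the sample labels. The deposited table holds bead signal intensity values, which the authors extracted with GenomeStudio 2011.1 (submitters' processing notes) and did not normalize between arrays, and a detection p-value that the authors' software gave for each probe and array. The study's own Robust Multi-array normalized values were not used here. Signals were corrected with the RMA convolution model, quantile normalized over the 8 arrays and log2 transformed. The background correction sets the size of differences between dim probes and quantile normalization forces equal distributions, so both were varied.

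Linear models were fitted with limma 3.58.1 (statmod 1.5.0, R 4.3.3) to the 4 group means, with empirical Bayes moderation along an intensity trend, two-sided tests and Benjamini-Hochberg adjustment over all 47322 probes, with no filter and a threshold of 0.05. All adjusted p values in the text come from this fit, and changes are log2 unless written as folds. On simulated interactions of 0.5, 1 and 2, the fit recovered 1 of 67, 22 of 67 and 49 of 66 changed probes and called 0 unchanged ones. The simulated noise was normal and independent between arrays, with spreads shuffled among probes of similar intensity. It thus suits the intensity trend by design. The 0 therefore does not show that the calls in the real data, which depend on that trend, are free of false ones.

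Gene counts use the brightest probe of each of 30935 genes, with 3307 older symbols updated through RefSeq. Genes are named when they head the called probes of a detection class in either direction (6 on all 8 arrays, 3 in both lines otherwise, 4 in each single line), are among the 6 largest opposite calls, are 1 of up to 4 called members of a list, or are 1 of 12 fixed regulators. The members and lists were chosen with earlier results of these data known. Further list members were named after their values were seen. A few genes that enter the counts are not reported here by name.

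Same-numbered replicates did not pair, with correlations of their deviations of -0.111 in SH-SY5Y and -0.00447 in SH-EP2 cells. Background correction, normalization, filtering, variance model, detection threshold, pairing and single arrays were varied in turn.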

Additional observations from a re-analysis of the deposited data

Results flagged for a closer look

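The genes here were called in each line on its own with opposite directions and were also called for the interaction, the limma test of the difference itself (adjusted p in every case below 0.05). Positive interactions, with a rise in SH-SY5Y and a fall in SH-EP2 cells, were found for VSTM2L (4.89), PLPPR4 (4.45), DLX5 (3.84), DCN (3.35), LOX (2.9), ACTA2 (2.73), LUM (2.38) and TAGLN (1.97). Those of VSTM2L and LOX were fitted against an undetected group and are not measured sizes. Negative interactions, with a fall in SH-SY5Y and a rise in SH-EP2 cells, were found for DKK2 (-4.05), CCL2 (-3.66), IL12A (-3.2), IFI44 (-1.51) and PLAT (-1.34). With 2 arrays per group no array could be tested as an outlier.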

How the results depend on the processing

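The counts depend on the variance model, the background correction and single arrays. The interaction calls over all probes, probes detected on all 8 arrays, both lines, SH-SY5Y only and SH-EP2 only were 662, 503, 574, 32 and 52. Without the intensity trend they were 23, 7, 11, 4 and 8, with 0 opposite calls and 71.4% of the gaps wider. With a separate variance per probe they were 15, 10, 11, 1 and 1, with 2 opposite calls and 30% wider. With normexp background they were 1153 over all probes, 780 on all 8 arrays, 112 for SH-SY5Y only and 177 for SH-EP2 only. With no background correction they were 1248, 824, 897, 125 and 209, and with neqc the single-line counts were 59 and 94. Averaging the probes of a symbol gave 382 calls. The replicate block gave 500, 365, 427, 27 and 46 calls, 49 opposite calls and 43.8% wider, and pairing the numbers crosswise in SH-SY5Y, an alternative chosen after seeing the data, gave 1000 calls and 776 on all 8 arrays. Leaving out single arrays gave 405 to 640, 296 to 481, 348 to 560, 16 to 32 and 23 to 59 calls in the same order, 33 to 57 opposite calls, 39.9% to 46.6% wider and a change of the distance of -0.0285 to 0.01, and 10641 to 12375 and 10531 to 12636 line differences in control and shRNA cells. The count for both lines was 358, 351 and 348 without SH-EP2 control replicate 2 and SH-EP2 TRPM7 shRNA replicate 1 and 2. The distance change turned to 0.0103 with median scaling, and to 0.00082 and 0.00281 without SH-EP2 TRPM7 shRNA replicate 1 or 2. Turned interactions were LIN28B (neqc 0.0497, normexp 0.479, no background correction 0.569), SNAI2 (no background correction 0.121) and ID3 (median scaling 0.017). The interaction of SNAI1, undetected in both lines, was 0.0183 with neqc and 0.0694 with median scaling, and ran from -0.246 to 0.101 with single arrays left out, with a positive value of 0.0428 and 0.0492 without SH-SY5Y control replicate 1 or SH-SY5Y TRPM7 shRNA replicate 1 and of 0.101 without SH-EP2 TRPM7 shRNA replicate 2. The cause was not tested. Of 72 named genes called, 52 kept the call with every array left out, 16 without the intensity trend and 0 with a separate variance per probe. Dim probes and 2 arrays per group limit what could be called.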
